A study of Mus musculus with 4 samples.

Results

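Rspo2 Hhip cells are skin cells that held transcripts of both Rspo2, which encodes a secreted R-spondin that amplifies Wnt signals, and Hhip, which encodes a surface protein that binds hedgehog ligands. They were selected from the raw counts of 4 single-cell libraries of mouse skin: a barcode had to hold at least 300 genes, at most 15% mitochondrial UMIs (unique molecular identifiers, each standing for 1 captured transcript), no UMI of the leukocyte gene Ptprc, fewer than 10 UMIs of the keratin genes Krt5 and Krt14 together, and at least 1 UMI each of Rspo2 and Hhip. This selection found 280 cells among 27755 barcodes that passed the first 2 conditions, here called kept barcodes, out of 28847 barcodes in all. The untreated library held 32 of them, the oxazolone day 10 library 170, the oxazolone day 16 library 52 and the MC903 day 9 library 26. Values for the 4 libraries are given in that order throughout. On GRCm38, Rspo2 lies at chr15:43020794-43170826 and Hhip at chr8:79965851-80058006, both on the minus strand, and their UMIs came from 3′ ends.

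All groups were female C57BL/6J mice of 6-8 weeks, and each library pooled neck and ear skin from 3 mice, so the mice cannot be told apart and every group is 1 library. Oxazolone, a hapten that provokes an allergic contact reaction, was painted on at 3% to sensitise and from 7 days later at 1.0%, every other day, in 100 µL. MC903 (calcipotriol), a vitamin D analog that gives mice a dermatitis, was applied daily at 1 nmol in 100 µL of ethanol. The oxazolone was first given in a mix of acetone and mineral oil, and no vehicle library was analysed here, so the agent and its vehicle cannot be told apart. The labels say that neck skin was shaved on the day before treatment, and they give no hair cycle stage. A difference between 2 libraries below compares those libraries: it has no replicate check, no p-value is given, and the intervals cover counting error only.

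The dermal papilla is a small cluster of specialised fibroblasts at the base of each hair follicle. It sends Wnt, R-spondin, BMP and FGF signals to the overlying matrix keratinocytes, which divide to build the hair shaft, and it answers to hedgehog ligand made by those keratinocytes. Its cells change their secreted factors as the follicle passes between growth and rest. Unlike fibroblasts of the interfollicular dermis, they are known for a matrix rich in the proteoglycan versican and poor in fibrillar collagen.

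The selected cells had median totals of 10494.5, 13832, 16548 and 20017 UMIs, against 12505, 25093.5, 35526 and 24813 in the other fibroblasts (1833, 494, 265 and 1030 cells with Pdgfra and Col1a1 but neither Rspo2 nor Hhip). The files name Cell Ranger 7.2.0 for the untreated and day 10 libraries and 8.0.0 for the other two. In comparisons of day 16 with day 10, and of MC903 with untreated or day 10 skin, software version and treatment cannot be told apart. A doublet score marked 1, 8, 6 and 0 of the selected cells. No selected barcode occurred in more than 1 library, against 67 barcodes shared between libraries overall.

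Both selecting genes were usually well above the minimum of 1 UMI, and this is a description of the choice. Rspo2 had a median of 3, 11, 9.5 and 5.5 UMIs per cell and at most 94. Hhip had a median of 6.5, 18, 17.5 and 22.5 UMIs per cell and at most 135. Just inside the threshold lay 9 cells with 1 UMI of each gene, and 235 cells held at least 2 of both. Just outside it, 107 cells of the same gate held Rspo2 alone and 453 held Hhip alone. A further 50 cells with both genes were left out for Ptprc, 23 of them for a single Ptprc UMI, and 4 were left out for keratin UMIs. Dcc, the netrin receptor gene that the selection did not use, was seen in 242 of the 280 cells (86.4%), in 22.4% of the cells with Rspo2 alone, in 13.5% of those with Hhip alone and in 1.91% of 9851 gated cells with neither. By library its UMIs were found in 84.4%, 93.5%, 71.2% and 73.1% of the selected cells.

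When all kept barcodes were clustered by their expression, 242 of the 280 cells (86.4%) fell into a single cluster of 324 cells. Rspo2, Dcc, Lingo2, Pax1, Kcnd2, Rspo4 and Hhip were among its 10 leading genes, and here it is called the leading cluster. Another 30 cells (10.7%) fell into a cluster of 998 cells led by Apela, Tnn, Chrm2, Coch and Gpc5, here the second cluster, and 8 fell elsewhere. The split differed between libraries: the leading cluster held 19 of 32 untreated cells, or 59.4% (exact 95% interval 40.6% to 76.3%). Day 10 had 162 of 170 cells there, or 95.3% (90.9% to 97.9%), and day 16 had 46 of 52, or 88.5% (76.6% to 95.6%). The MC903 library had 15 of 26, or 57.7% (36.9% to 76.6%). The intervals of the untreated and MC903 libraries do not overlap that of day 10. Cells of the second cluster had fewer UMIs of the selecting genes, with a median of 2 of each against 11 of Rspo2 and 20 of Hhip, and a median total of 8849 UMIs against 14320.

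**Figure D1:**
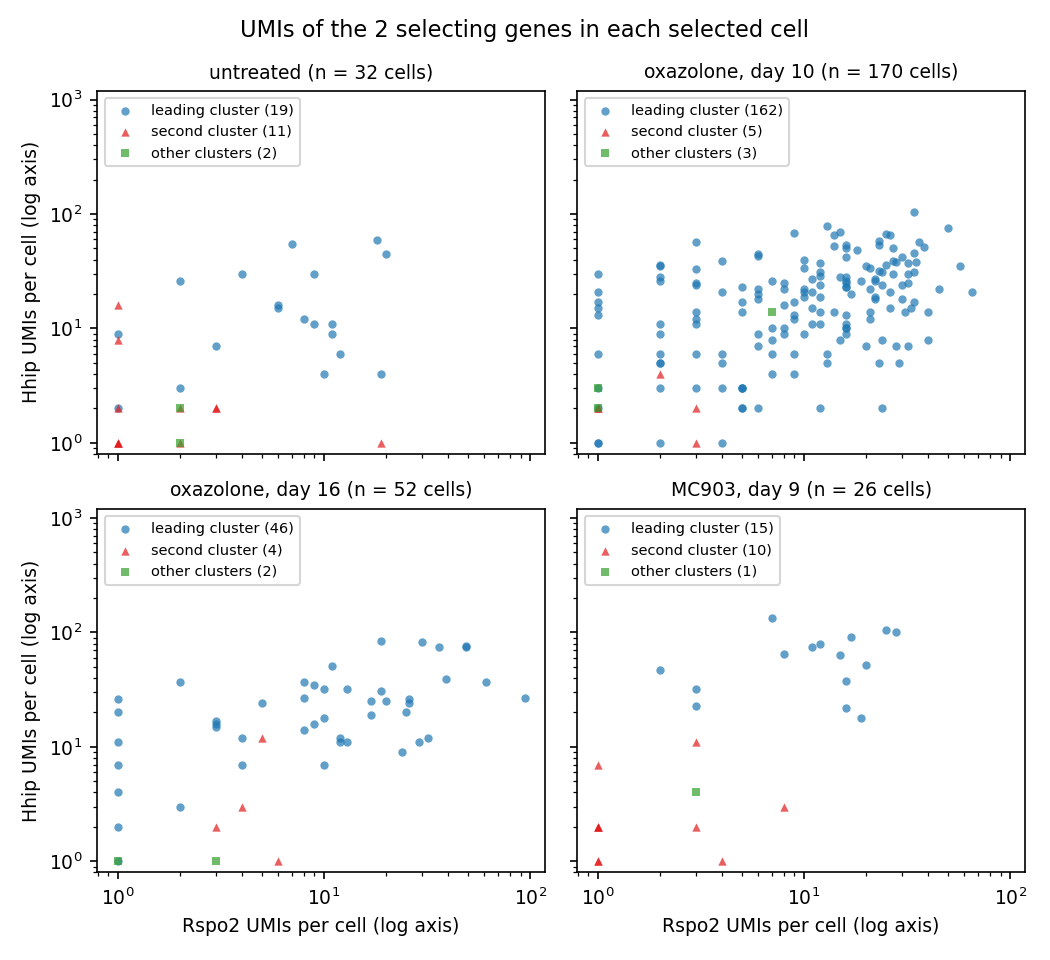
Each point is 1 selected cell, by its Rspo2 UMIs (horizontal log axis) and Hhip UMIs (vertical log axis), in 1 panel per library. Circles are cells of the leading cluster, triangles of the second cluster and squares of other clusters; cells with equal counts lie on top of each other, and most triangles sit at the low ends of both axes.

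Within the selected cells, the 2 clusters differed in the genes they expressed, and since all genes were used to cluster, these values describe the clusters. Bmp6, a bone morphogenetic protein, was summed to 747 CPM (UMIs scaled to a total of 1000000 UMIs over the summed cells) in the leading cluster and 23.6 CPM in the second. Corin, a membrane serine protease long used as a dermal papilla marker, had 1538 against 88.4 CPM. The versican gene Vcan had 3522 against 398 CPM and Dcc 2825 against 295 CPM. These papilla genes were thus concentrated in the leading cluster. In the opposite direction, Igfbp3, which encodes a carrier of insulin-like growth factors, had 299 CPM in the leading and 6497 in the second cluster. Dkk2, a secreted Wnt inhibitor, had 468 against 4668 CPM. Lef1, the nuclear partner of beta-catenin, was at 1046 and 783 CPM, and Trps1, a zinc finger factor of hair follicle mesenchyme, at 4469 and 2388 CPM. All 3 kinds of cell carried papilla transcripts: the number of the 28 dermal papilla list genes seen per cell had a median of 22 (7 to 27) in the leading cluster, 14.5 (10 to 22) in the second and 9 (4 to 22) in the 8 cells elsewhere.

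The label of dermal papilla was set beside a list of 28 papilla genes that includes Dcc but neither selecting gene. Dcc was named beforehand as a marker of these cells, and the list was drawn up with earlier results of these data known. The list therefore describes the cells and is no independent check of the label. The selected cells held a median of 19.5, 22, 21 and 20 of these genes per cell, against 4, 6, 5 and 5 in the other fibroblasts. All 280 cells held at least 3, but so did 80.0%, 93.5%, 86.8% and 88.0% of the other fibroblasts. Their summed level was 19766, 29710.3, 22643 and 17996 CPM in the selected cells and 1763, 2418, 1578 and 1569 CPM in the other fibroblasts of the same libraries. At day 10, all 28 were at least 2-fold higher in the selected cells than in the other fibroblasts, with a median log2 ratio of 4.47, where 15.9% of 13103 measured genes were at least 2-fold higher and the median over all of them was 0.15. Both cell sets were chosen on their own counts, so this and all later counts against the other fibroblasts are descriptions. Alx4, a homeobox gene of papilla cells, had 179, 230.1, 187 and 212 CPM in the selected cells and 2.93, 4.67, 1.04 and 0.677 CPM in the other fibroblasts. Sox2, a factor found in the papillae of some hair types, had 77.8, 76.7, 61 and 215 CPM against 0.244, 0.467, 0.104 and 0.249 CPM, and was seen in 11, 59, 15 and 14 cells. The papilla Notch target Hey2 had 127, 189, 135 and 148 CPM against 2.03, 2.41, 0.313 and 0.641 CPM. For each of these genes, every library's selected cells lay above every library's other fibroblasts. The papilla label was kept for the selected cells as a set, while the 30 cells of the second cluster and the 8 elsewhere held fewer of these genes.

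**Figure D2:**
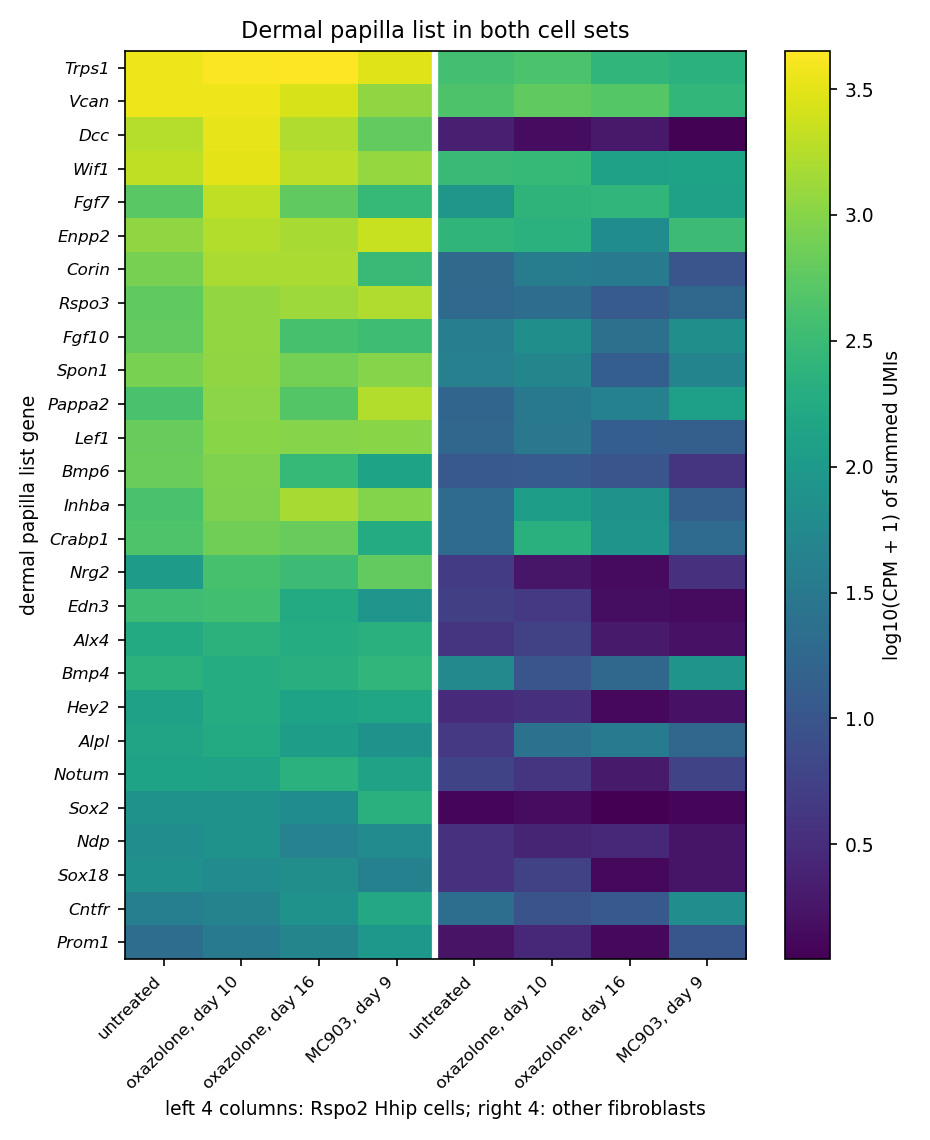
Rows are 27 genes of the dermal papilla list, ordered by their level in the selected cells at day 10, and columns are the 4 libraries, first for the Rspo2 Hhip cells and then for the other fibroblasts. Colour gives log10(CPM + 1) of the summed UMIs; the left columns are brighter in nearly every row.

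Markers of related mesenchymal types were present in the selected cells. At least 3 of the 6 general fibroblast markers were seen in 244 of the 280 cells, at summed levels of 11457, 2689, 4754 and 3024 CPM against 37474, 32954, 26757 and 19064 CPM in the other fibroblasts, which were chosen on Pdgfra and Col1a1 from this list. At least 3 of the 10 dermal sheath markers were seen in 213 cells (76.1%), or 53.1%, 85.3%, 63.5% and 69.2% by library, against 57.3%, 80.4%, 67.5% and 65.1% of the other fibroblasts. The dermal sheath is the contractile layer around the follicle. Its markers summed to 807, 1059.8, 1026 and 1602 CPM in the selected cells and 1419, 2143, 1488 and 1410.1 CPM in the other fibroblasts, so with MC903 the selected cells lay above them. Markers of more distant cell types were seen in fewer cells. The selection required no Ptprc and limited Krt5 and Krt14, which are on the epidermal keratinocyte list. Low counts of leukocyte and keratinocyte markers thus follow in part from the choice. No cell held 3 or more markers of lymphatic endothelium, Schwann cells, skeletal muscle, adipocytes, hair matrix and shaft, T cells and innate lymphoid cells, or red cells. Adipoq, Lep, Cidec and Pck1 of the adipocyte list, Acta1, Myh4 and Myl1 of the muscle list, Lyve1, Krt6a, Krt31 and Krt73 had no UMI in any of the 280 cells. Melanocyte markers reached 3 in 13 cells, all at day 10, and perichondrium-like markers in 28 cells. Mural, macrophage, chondrocyte, endothelial and epidermal keratinocyte markers reached 3 in 9, 6, 4, 2 and 2 cells. Neutrophil markers summed to 0, 129, 2179 and 42.0 CPM, and 14 of the 52 cells at day 16 held at least 3 of them, as did 39.2% of the other fibroblasts there. The S100a9 transcript, a neutrophil calcium-binding protein, accounted for 1274 CPM at day 16; it was seen in 48 of 52 cells, and 1 cell held 76.2% of the UMIs. In the other fibroblasts of that library S100a9 was at 335 CPM. The part of such RNA in the day 16 results was not tested.

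The share of Rspo2 Hhip cells was highest at oxazolone day 10. They made up 0.415% of kept untreated barcodes, with an exact 95% interval of 0.284% to 0.586%. Their share was 2.05% on oxazolone day 10, with an interval of 1.75% to 2.38%. The day 16 library had 0.657% (interval 0.491% to 0.861%), and the MC903 library 0.677% (interval 0.442% to 0.990%). The day 10 interval lies above the other 3, which overlap each other. Relative to untreated skin the share was 4.93 times as high on day 10 (3.36 to 7.43 by counting error). The corresponding ratio was 1.58 for day 16 (1.00 to 2.54) and 1.63 for MC903 (0.932 to 2.82), where counting error alone reaches about equal shares. The share was also taken of the 3873, 2463, 1653 and 2702 barcodes that met the Ptprc and keratin limits, where it was 0.826%, 6.90%, 3.15% and 0.962%. Set against the selected cells and other fibroblasts together, it was 1.72%, 25.6%, 16.4% and 2.46%. On these 2 scales the day 16 library also lay above the untreated one, by a ratio of 3.81 (2.41 to 6.11) and of 9.56 (6.04 to 15.3). The other fibroblasts in the last denominator numbered 1833, 494, 265 and 1030 cells. The leading cluster as a whole held 27, 211, 67 and 19 cells, or 0.351%, 2.54%, 0.847% and 0.494% of kept barcodes.

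Barcodes with at least 3 markers of the hair matrix and shaft keratinocyte list were also most frequent at day 10. That list also holds keratins of the inner root sheath, such as Krt71 and Krt25, so these barcodes need not be matrix or shaft cells. There were 7, 558, 36 and 2 of them, or 0.0909%, 6.72%, 0.455% and 0.0520% of kept barcodes. The intervals of the untreated library (0.0365% to 0.187%) and the MC903 library (0.0063% to 0.188%) overlap. Their part in the share of Rspo2 Hhip cells was not tested.

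**Figure D3:**
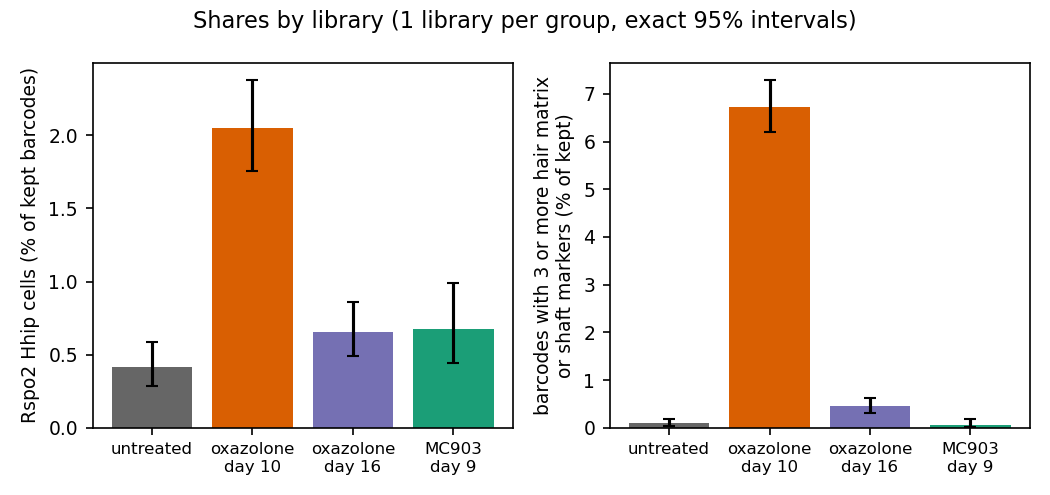
Bars give the percent of kept barcodes in each library that were Rspo2 Hhip cells (left) and that held at least 3 markers of the hair matrix and shaft list (right), with exact 95% binomial intervals. The list also holds inner root sheath keratins. In both panels the oxazolone day 10 library has the tallest bar, 2.05% and 6.72%.

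The R-spondin and Wnt genes of the selected cells were read against other fibroblasts at day 10, the library with most of these cells. In the selected cells 21 of 37 measured Wnt and R-spondin genes were higher by 2-fold or more and 5 were lower. Over all 13103 measured genes 15.9% were higher and 14.7% lower. Rspo3, a second R-spondin, was at 583, 1179, 1348 and 1657 CPM in the selected cells and at 18.1, 20.8, 11.2 and 17.5 CPM in the other fibroblasts. Rspo4 was at 20.7, 333, 231 and 95.1 CPM against 3.66, 3.73, 0.626 and 1.99 CPM. Sostdc1, a secreted inhibitor of BMP and Wnt signals, was at 249, 1594, 620.2 and 469 CPM against 2.64, 1.01, 0.522 and 2.81 CPM, a log2 ratio of 10.62, interval 9.85 to 11.53 at day 10. Levels of all 3 in the selected cells lay above those in other fibroblasts in every library. Axin2, a target of Wnt signals, was at 28.5, 82.9, 109 and 70.8 CPM in the selected cells and 34.6, 9.34, 3.34 and 38.6 CPM in the other fibroblasts, so that it was higher in the 3 treated libraries, while the 11 UMIs of the untreated cells gave an interval of 14.2 to 51.0 CPM that holds the level of the other fibroblasts. Axin2 was chosen after its values were seen.

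Hedgehog response genes were also higher in the selected cells, and the co-receptor genes Gas1 and Cdon were lower. Hhip belongs to the same pathway and was used to choose both cell sets. The choice itself may thus raise these levels, and they are a description. At day 10, 7 of 13 measured hedgehog genes were higher by 2-fold or more and 2 were lower. Among all measured genes, 15.9% were higher and 14.7% lower. Ptch1, the hedgehog receptor and a target of the pathway, was at 479.8, 591, 387 and 1082 CPM against 30.2, 33.4, 18.9 and 44.9 CPM in the other fibroblasts. Gli1, its target transcription factor, was at 75.2, 52.4, 70.8 and 66.4 CPM against 7.6, 6.3, 6.89 and 5.13 CPM. The co-receptor genes Gas1 and Cdon ran the other way. Gas1 was at 106, 77.5, 216 and 206 CPM against 556, 616, 437 and 580.1 CPM. Cdon was at 36.3, 7.01, 19.6 and 13.3 CPM against 163, 111, 129 and 148 CPM.

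Of 30 measured BMP and TGF-beta family genes, 16 were higher and 5 lower in the selected cells at day 10. For this and the next 2 lists, the shares over all measured genes were 15.9% higher and 14.7% lower. Bmp6 was at 695, 892, 289 and 137 CPM against 10.3, 11, 8.97 and 2.81 CPM, and Nog, which encodes the BMP antagonist noggin, at 28.5, 51.5, 21.8 and 119 CPM against 4.96, 0.856, 1.36 and 10.6 CPM. Grem1, another BMP antagonist, had 1, 0, 0 and 0 UMIs in the selected cells and 45.8, 66.4, 63.9 and 9.26 CPM in the other fibroblasts, at least 53.7-fold lower at day 10. The type 1 receptor gene Bmpr1b had 1 UMI there, against 55 CPM in other fibroblasts. Among 25 measured paracrine genes of hair growth, 11 were higher and 7 lower. The neuregulin gene Nrg2 was at 106, 403, 330.2 and 615 CPM against 3.74, 0.856, 0.417 and 2.64 CPM, and the endothelin gene Edn3, whose product acts on melanocytes, at 342, 364, 179 and 81.9 CPM against 4.27, 3.42, 0.522 and 0.392 CPM. Guidance genes were split, with 10 of 30 higher and 10 lower: Ntng1 was at 249 against 5.06 CPM at day 10, while Nrp1 was at 4.12 against 133 CPM.

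Transcripts of most collagen and matrix genes were lower in the selected cells at day 10. The other fibroblasts were chosen for Pdgfra and Col1a1. The choice itself may thus raise their matrix transcripts, and these values are a description. Of 49 measured collagen and matrix genes, 33 were at least 2-fold lower than in other fibroblasts at day 10 and 7 higher, with a median log2 ratio of -2.37, where 14.7% of all measured genes were lower. Dcn, which encodes the proteoglycan decorin, was at 1478, 96.5, 361 and 819 CPM in the selected cells and 12678, 5596, 5427 and 9195 CPM in the other fibroblasts. Those decorin UMIs were uneven: they came from 7, 38, 15 and 14 cells, and 1 cell gave 43%, 44.4%, 89.7% and 92.4% of them. The collagen gene Col3a1 was at 3319, 1018, 2308 and 861 CPM against 7008, 10798, 9239.9 and 2501 CPM. Tenascin C (Tnc), a matrix glycoprotein of wounds and inflamed dermis, was at 137, 10.3, 56.7 and 4.42 CPM against 273, 3209.7, 2482 and 485 CPM, and its untreated UMIs all came from 1 cell.

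Several inflammatory genes that were high in the other fibroblasts of oxazolone skin had few UMIs in the selected cells of the same libraries. At day 10, 20 of 28 measured chemokine and cytokine genes were at least 2-fold lower and 2 higher, as were 11 and 0 of 19 acute phase and NF-kB target genes. Over all measured genes the shares were 14.7% lower and 15.9% higher. Saa3, an acute phase protein, had 0, 8, 3 and 8 UMIs in the selected cells, or 0, 3.3, 3.27 and 17.7 CPM, against 0.244, 1711, 2378 and 139 CPM in the other fibroblasts. Its 8 UMIs with MC903 came from 1 cell. Cxcl5, a neutrophil chemoattractant, was at 0, 5.36, 3.27 and 0 CPM against 0.325, 1489.9, 1751 and 52.3 CPM. The alarmin gene Il33 had 0, 0, 6 and 0 UMIs in the selected cells and 11.5, 156, 270.3 and 38.7 CPM in the other fibroblasts, at least 126-fold lower at day 10. For shares of cells at equal depth, cells of the day 10 library were thinned to 5000 UMIs, which left out 7 of 170 selected cells, 30 of 494 other fibroblasts and 18 of 120 endothelial cells. Saa3 was then seen in 0.613% of the selected cells, 20.5% of the other fibroblasts and 1.96% of the endothelial cells, and in 4.12%, 25.1% and 5.83% before thinning. The share in the selected cells lay below that in endothelial cells, whose median depth was 14745.5 UMIs, and is read as background. Cxcl5 was seen in 2.45%, 30.2% and 0% of the thinned cells, and in 5.88%, 36.6% and 1.67% before thinning. Its 2.45% stands for 4 cells and lies under the 2.94% that a count of 0 allows in 102 endothelial cells. These counts are too few to tell a low level in the selected cells from background. Timp1, a metalloprotease inhibitor, was at 7.78, 4.12, 167 and 6.64 CPM against 34.2, 1253, 2001 and 194 CPM, and the stromelysin gene Mmp3 at 28.5, 2.06, 37.1 and 13.3 CPM against 152, 566, 1087 and 261 CPM.

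Receptors for type 2 cytokines were low as well. Of 26 measured cytokine receptor genes, 14 were at least 2-fold lower in the selected cells at day 10 and 1 higher. Among all measured genes 14.7% were lower and 15.9% higher. Il4ra, the shared receptor chain for interleukins 4 and 13, was at 7.78, 4.54, 29.4 and 2.21 CPM in the selected cells and at 38.3, 98.8, 111 and 33.5 CPM in the other fibroblasts. The interleukin 33 receptor gene Il1rl1 was at 0, 0.412, 6.54 and 0 CPM against 2.36, 165, 119.6 and 5.38 CPM, and the interleukin 1 receptor gene Il1r1 at 101, 40.8, 67.6 and 33.2 CPM against 238, 609, 856 and 443 CPM. In each library the selected cells were below the other fibroblasts for all 3, but for Il1rl1 the counting intervals overlapped in the untreated and MC903 libraries, and with 3, 10, 5 and 1 cells holding Il4ra the levels rest on few UMIs. Cell cycle genes were also lower at day 10, 17 of 20 with none higher: Birc5 was at 1.65 against 30.7 CPM and Ube2c at 1.65 against 27.6 CPM. Scaling these day 10 sums by the median of ratios instead of the total moved log2 ratios by -0.25 and left 38.9% instead of 51.9% of the called genes higher.

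**Figure D4:**
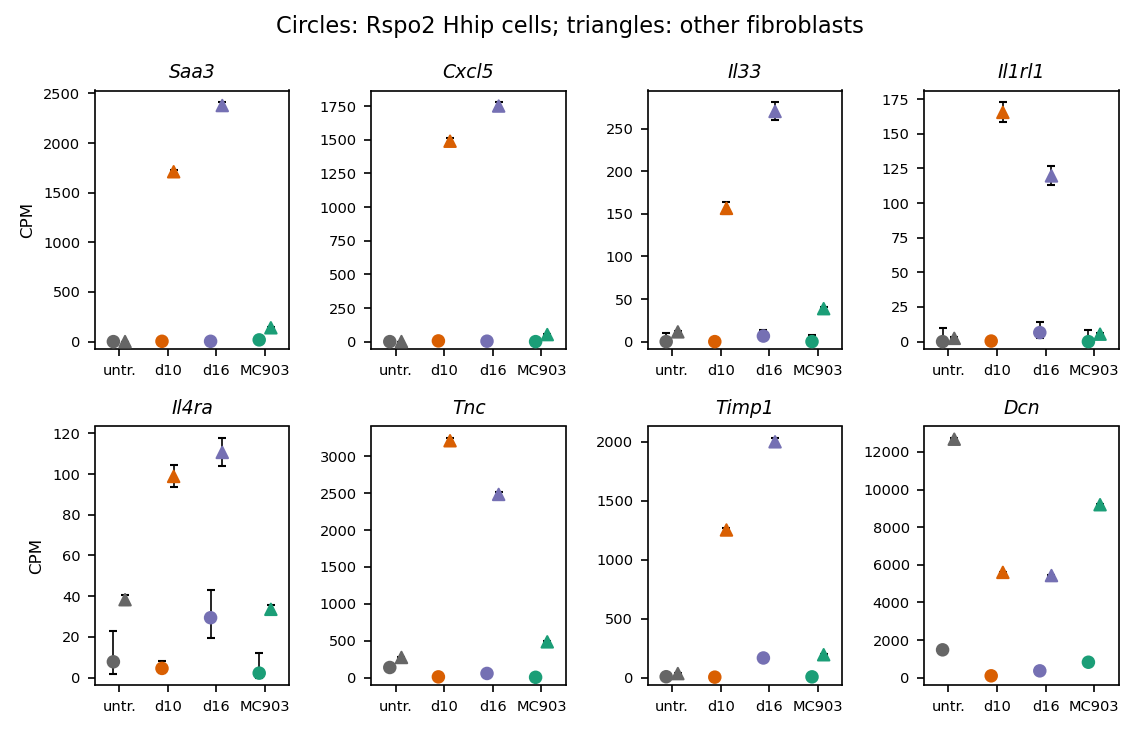
Each panel gives 1 gene's summed level in CPM (linear axis) in the 4 libraries, with circles for the Rspo2 Hhip cells, triangles for the other fibroblasts and bars for exact 95% Poisson intervals. The circles of Saa3 and Cxcl5 lie between 0 and 17.7 CPM, and the triangles of the oxazolone libraries between 1489.9 and 2378 CPM.

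Several secreted Wnt modulators and growth factors were higher in the selected cells at oxazolone day 10 than in untreated skin. Of 30 measured Wnt and R-spondin genes, 14 were at least 2-fold higher at day 10 and 1 lower, where 9.16% of 9219 measured genes were higher and 6.32% lower. Rspo4 went from 20.7 to 333 CPM, a log2 ratio of 4.00, interval 3.02 to 5.22. It was seen in 6 of 32 and 137 of 170 cells. Sfrp2, a secreted Frizzled-related protein, went from 51.9 to 409 CPM (log2 2.98, interval 2.34 to 3.70), and Sostdc1 from 249 to 1594 CPM (log2 2.68, interval 2.39 to 2.99). The selecting genes themselves lay below the 2-fold limit, at log2 ratios of 0.96 for Rspo2 and 0.58 for Hhip. Rspo2 passed it with median of ratios scaling (1.13) and without the cell with most of its UMIs (1.02). Every selected cell had to hold both genes, so these ratios describe the chosen cells.

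Of 28 measured papilla genes, 5 passed 2-fold in the higher direction and none in the lower. Over all 9219 measured genes 9.16% were higher and 6.32% lower. Fgf7, the keratinocyte growth factor, went from 529 to 1995 CPM (log2 1.92, interval 1.71 to 2.12). It was held by 27 of 32 and 163 of 170 cells. Nrg2 (log2 1.92), Pappa2, a protease that cleaves carriers of insulin-like growth factor (log2 1.38), Inhba, the activin A subunit (log2 1.05), and Rspo3 (log2 1.01) were the others. Pappa2, Inhba and Rspo3 were under the limit with the mean of the cells' CPM, at 0.75, 0.91 and 0.88. Inhba and Rspo3 were also under it with at least 2 UMIs of both selecting genes (0.96 and 0.94) and within the leading cluster (0.69 and 0.74), and Rspo3 with doublets removed (0.97). Corin and Fgf10, a growth factor of the same family as Fgf7, differed by less than 2-fold, from 807 to 1560.4 CPM and from 604 to 1161 CPM.

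Of the 10 highest ratios, several came from genes spread over many day 10 cells, while Sst came from 1 cell to 99.8%. The splicing factor gene Rbfox1 went from 38.9 to 694 CPM and was seen in 88 of 170 cells. Lypd1, which encodes a modulator of nicotinic receptors, had 1 UMI in untreated cells and 111 CPM at day 10, in 48 cells (log2 5.42, interval 2.93 to 10.73). Abca8a, a lipid transporter gene, was at 5.19 and 138 CPM, in 69 day 10 cells, and Csrnp3 at 2.59 and 68.5 CPM, in 72 cells. Vdr, the vitamin D receptor of hair follicle cells, went from 23.3 to 122 CPM (log2 2.39, interval 1.45 to 3.53), and 117 of the 170 cells held it. In the other fibroblasts Vdr was at 19.6 and 21.1 CPM.

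Matrix and stress genes were among those lower at day 10. Of 47 measured collagen and matrix genes 15 were lower and 3 higher, where 6.32% of 9219 measured genes were lower and 9.16% higher. Dcn went from 1478 to 96.5 CPM and Lum, which encodes lumican, from 446 to 41.2 CPM, with untreated UMIs from 7 and 6 cells. The Wnt inhibitor gene Dkk2 was lower, going from 832 to 132 CPM in the summed cells, with a log2 ratio of -2.66. The direction differed between clusters: within the leading cluster Dkk2 was at 42.7 and 103 CPM, a log2 ratio of 1.27, and within the second cluster at 3406 and 1281 CPM. The leading cluster held 19 untreated and 162 day 10 cells, and the second 11 and 5. All but the 162 lie under the minimum of 20 cells set for comparisons, so these directions rest on few cells. Of 20 dissociation stress genes, 12 were lower at day 10 and none higher, Jun at 796 and 199 CPM among them. The same list had 11 lower and none higher in the other fibroblasts, where 6.6% of 14559 genes were lower and 8.14% higher, so it moved in both cell sets, and its part in the other differences was not tested. With median of ratios scaling log2 values moved by 0.17, and 73.6% instead of 59.1% of the called genes were higher at day 10.

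At oxazolone day 16 some growth factor genes were lower than at day 10 and Dkk2 was higher. Of 28 papilla genes, none was at least 2-fold higher than at day 10 and 6 were lower, where 4.15% of 9634 measured genes were higher and 9.42% lower. Fgf7 went from 1995 to 596 CPM (log2 -1.74, interval -1.87 to -1.61), Bmp6 from 892 to 289 CPM (log2 -1.63, interval -1.82 to -1.44) and Fgf10 from 1161 to 397 CPM (log2 -1.55, interval -1.71 to -1.39). Pappa2 and Edn3 were among the others. Of the 5 genes that passed at day 10, Nrg2 was at 403 and 330.2 CPM, Rspo3 at 1179 and 1348 CPM and Inhba at 859 and 1532 CPM, none of them lower by 2-fold. Untreated cells had 529 CPM of Fgf7 and 695 CPM of Bmp6, so Bmp6 on day 16 lay below the untreated and the day 10 level. Sfrp2 went from 409 to 71.9 CPM and the Wnt ligand gene Wnt5b from 172 to 64.3 CPM. Rspo2, Hhip and Corin were within 2-fold, with log2 ratios of -0.20 and -0.20 for the first 2. The selection required Rspo2 and Hhip, so their ratios describe the chosen cells.

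Dkk2 went from 132 to 1575 CPM (log2 3.58, interval 3.40 to 3.76), and within the leading cluster from 103 to 1098 CPM. It was seen in 51 of 170 cells at day 10 and 38 of 52 at day 16. Guidance genes had 7 of 25 measured members higher and 2 lower. Over all 9634 measured genes 4.15% were higher and 9.42% lower, so the number lower is near that share. Slit2, a repellent ligand, went from 264 to 1062 CPM and Sema5a, a semaphorin gene, from 57.3 to 567 CPM. The prolactin receptor gene Prlr went from 172 to 607 CPM (log2 1.82, interval 1.63 to 2.00). In contrast, Lypd1 (111 to 5.45 CPM), Ramp3, a partner protein of calcitonin-type receptors (69.7 to 2.18 CPM), and Vdr (122 to 33.8 CPM) were lower at day 16.

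Heat shock and inflammatory transcripts were also higher at day 16 in these cells. Over all 9634 measured genes 4.15% were higher than at day 10 and 9.42% lower. Hspa1a went from 139 to 754 CPM, and 7 of 19 measured dissociation stress genes were higher and none lower. The same list had 7 higher and none lower in the other fibroblasts, where 3.36% of 13386 genes were higher and 10.7% lower. Of 9 measured chemokine and cytokine genes 7 were higher and 1 lower, but these sums leaned on single cells: 1 cell held 98.1% of the Ccl11 UMIs at day 16, and day 10 cells held none, so without that cell no ratio of this eosinophil chemoattractant is given. Timp1 went from 4.12 to 167 CPM with 62.1% of its UMIs in 1 cell, and the other fibroblasts had 2001 CPM.

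With MC903 the papilla genes were split between higher and lower levels. This comparison shares its untreated library with that of oxazolone day 10. Compared with untreated skin, 8 of 27 measured papilla genes were at least 2-fold higher and 6 lower, where 11.7% of 5051 measured genes were higher and 10.2% lower. The 8 were Nrg2, Prom1, Cntfr, Pappa2, Sox2, Inhba, Rspo3 and Enpp2. Sox2 went from 77.8 to 215 CPM and Cntfr, a ciliary neurotrophic factor receptor gene, from 38.9 to 166 CPM. The 6 were Bmp6, Edn3, Dcc, Corin, Vcan and the retinoic acid binding protein gene Crabp1. Bmp6 went from 695 to 137 CPM, Dcc from 1792 to 611 CPM and Vcan from 3615 to 1146 CPM. Dcc, a defining gene of the leading cluster, was thus at its lowest level of the 4 libraries with MC903, and it was still seen in 19 of 26 cells.

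More Wnt genes were higher than lower with MC903. Of 28 measured Wnt and R-spondin genes 11 were higher than in untreated skin and 1 lower. Over all 5051 measured genes 11.7% were higher and 10.2% lower. Nkd2, a feedback inhibitor of Wnt signals, went from 64.8 to 465 CPM (log2 2.84, interval 2.24 to 3.50), and Rspo4 from 20.7 to 95.1 CPM, of which 1 cell held 48.8%. Of 8 measured hedgehog genes, Ptch1 alone passed 2-fold, from 479.8 to 1082 CPM (log2 1.17, interval 0.93 to 1.43), with Gli1 at 75.2 and 66.4 CPM. That count is near the share over all measured genes. Hhip itself went from 1022 to 2175 CPM (log2 1.09, or 0.85 with the mean of the cells' CPM), and Rspo2 was at 513 and 507 CPM. Every selected cell had to hold both genes, so their levels describe the chosen cells.

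Apod, which encodes apolipoprotein D, was the gene with the most UMIs among the 10 highest ratios with MC903. It was at 952, 1452, 1365 and 12679.5 CPM in the selected cells, a log2 ratio of 3.74, interval 3.58 to 3.89 over untreated. In the other fibroblasts it was at 1165, 1776, 1494 and 4674 CPM, so it was higher with MC903 there too. The selected cells with Apod numbered 22 of 26, no cell held more than 12.9% of the UMIs, and the leading cluster alone had 17070.0 CPM against 609 CPM in the second. Signalling genes among the highest ratios were Rgs2, a brake on G protein signals (18.2 to 524 CPM), Gna14, a G protein subunit (25.9 to 378 CPM), and Tacr1, the substance P receptor (31.1 to 431 CPM). The taurine transporter gene Slc6a6 went from 140.0 to 1228 CPM and was seen in all 26 cells. With MC903, 11.7% of all 5051 measured genes were higher than in untreated cells and 10.2% lower. Contractile genes, several of which are also dermal sheath markers, were higher in 6 of 8 measured and lower in none. The dermal sheath list summed to 807 CPM in untreated cells and 1602 CPM with MC903, and its part in this count was not tested. Tagln had 1 UMI in untreated cells and 102 CPM with MC903 in 10 cells, and Mylk, the myosin light chain kinase gene, went from 23.3 to 122 CPM.

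Among the lowest ratios with MC903 were the estrogen receptor gene Esr1 (853 to 84.1 CPM, log2 -3.34, interval -3.87 to -2.86) and the signal transducer gene Stat5a (265 to 24.3 CPM). Esr1 was at 853, 405, 230.0 and 84.1 CPM over the 4 libraries and Stat5a at 265, 200.4, 69.8 and 24.3 CPM, so both were lower in every treated library than in untreated skin. Of 20 dissociation stress genes 14 were lower and none higher with MC903, where 10.2% of 5051 measured genes were lower and 11.7% higher. In the other fibroblasts 1 was lower and none higher, where 9.81% of 15235 genes were lower and 8.76% higher. The difference between the cell sets was not tested. Cyp24a1, the vitamin D hydroxylase gene induced through Vdr and chosen here after its values were seen, had 0, 0, 0 and 2 UMIs in the selected cells, against 71.8 CPM in the other fibroblasts of the MC903 library. Vdr in the selected cells of that library was at 55.3 CPM, against 30.9 CPM in the other fibroblasts.

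MC903 and oxazolone day 10 were also compared directly, a contrast that shares its samples with those above. Of 28 papilla genes 3 were at least 2-fold higher with MC903 (Sox2, Cntfr and Prom1) and 11 lower, where 8.23% of 9270 measured genes were higher and 12.2% lower. Fgf7 was at 1995 CPM at day 10 and 288 CPM with MC903 (log2 -2.79, interval -3.06 to -2.54), Corin at 1560.4 and 299 CPM (log2 -2.39, interval -2.64 to -2.14), and Sfrp2 at 409 and 90.7 CPM. In the other direction Dkk2 was at 132 and 2688 CPM (log2 4.35, interval 4.17 to 4.53), and within the leading cluster at 103 and 1839 CPM, the latter from 15 cells. Ank2, an ankyrin gene, was at 179 and 1774 CPM, and Prlr at 172 and 965 CPM. The 2 libraries thus differed in which secreted factors these cells transcribed, by more than counting error, with 1 library per model. The leading cluster held 95.3% of the selected cells at day 10 and 57.7% with MC903, and the part of this was not tested. Median of ratios scaling moved these log2 values by -0.19, and 25.8% instead of 40.3% of the called genes were higher with MC903.

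**Figure D5:**
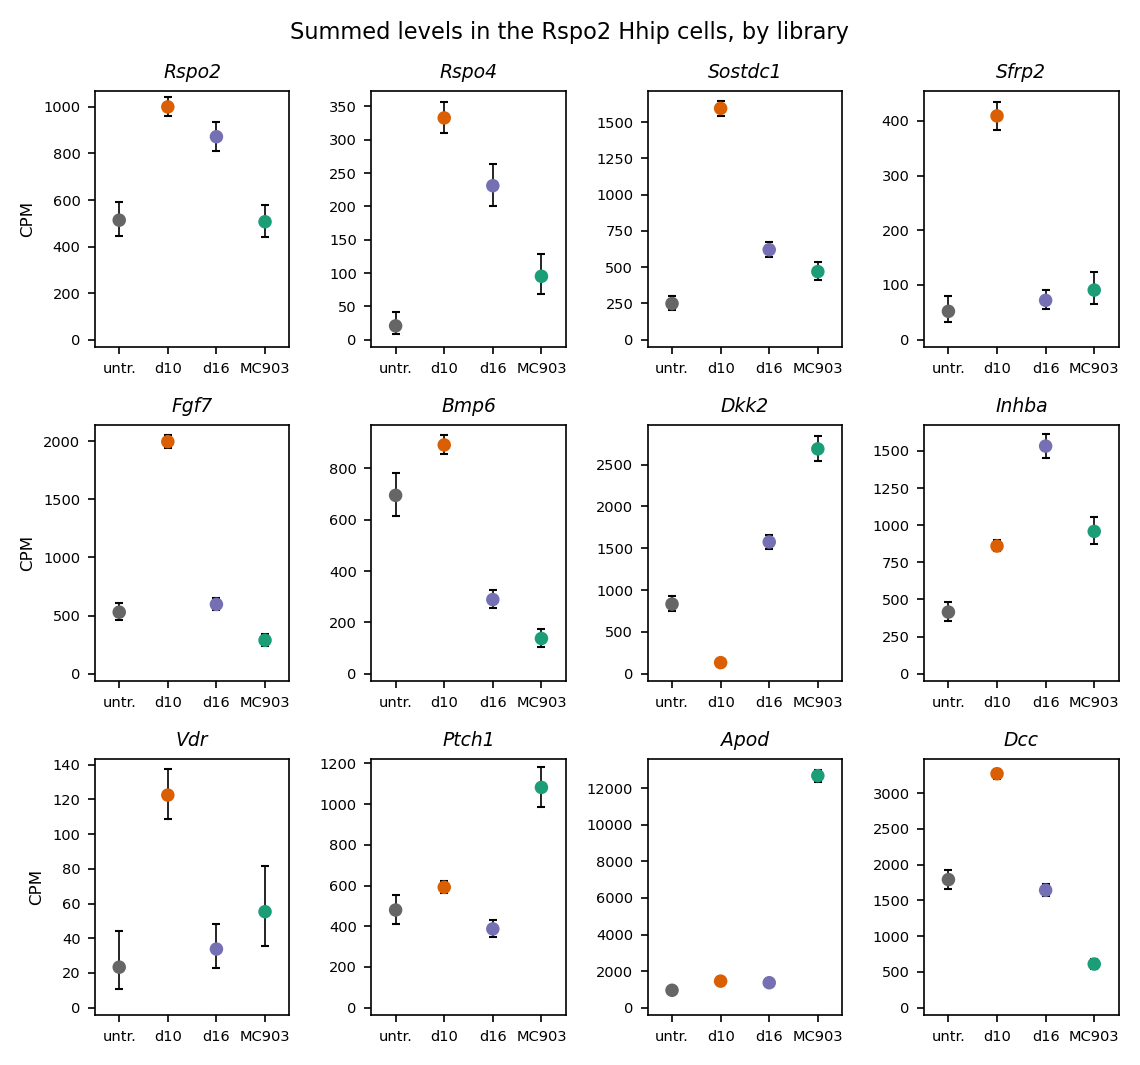
Each panel gives the summed level of 1 gene in the Rspo2 Hhip cells in CPM (linear axis from 0), by library: untreated, oxazolone day 10, oxazolone day 16 and MC903 day 9. Points are single libraries and bars exact 95% Poisson intervals; Rspo4, Sostdc1, Sfrp2, Fgf7 and Vdr are highest at day 10, and Dkk2, Ptch1 and Apod with MC903.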

How the data were processed

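Single-cell RNA was captured with 10x 3′ v3.1 chemistry from 4 libraries of mouse skin, 1 per group. The authors deposited whole-number UMI counts per gene and barcode, made with Cell Ranger 7.2.0 (untreated, oxazolone day 10) or 8.0.0 (oxazolone day 16, MC903) per the file headers; the submitters' processing notes name version 8.0 and mm10. No cell annotation was used. Library totals ran from 73054242 to 119717836 UMIs over 32285 genes, and 27755 of 28847 barcodes passed the limits on genes and mitochondrial UMIs.

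UMIs of the selected cells were summed per library and scaled to CPM. Genes with at least 30 UMIs in a pair of sums were measured, and a ratio of at least 2-fold was called. Ratios carry conditional binomial 95% intervals, levels exact Poisson and shares exact Clopper-Pearson intervals. PCR, pooling of mice and differences between the summed cells are not covered by these intervals. Where a gene had no UMI in a sum, 3 UMIs took its place and the fold is a bound, and no fold is given where both sums were at or under that. With 1 library per group no test was run.

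Barcodes were clustered with scanpy 1.11.5 and igraph 0.11.9 in Python 3.11.15 (10000 UMIs per cell, 2000 variable genes, 30 components, 15 neighbours, Leiden resolution 1, no integration). Doublets were scored with Scrublet, marking the top 0.8% per 1000 barcodes, and were kept unless stated. The ratio step was tested on simulated data with Poisson counting error only, so that test does not cover differences between cells.

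The cells and the gene lists were chosen with earlier results of these data known. Named genes are Rspo2, Hhip, Dcc and the papilla list, up to 4 genes with the largest ratios per list and comparison, and the 10 highest and 10 lowest per comparison with at least 100 UMIs, except for hemoglobin, immunoglobulin, ribosomal, mitochondrial, sex-linked and predicted genes. Of other cell types' markers, the 2 most frequent and those at 0 are named. The values of 1 papilla list gene are not reported here, though the list counts include it. Genes used to choose either cell set were left out of the counts of list genes higher or lower in a comparison. They were kept in the counts of cells and summed levels of the cell type markers. Alternatives covered doublets, stricter selection, mitochondrial limit, depth, scaling, fibroblast definition, call limits and clustering resolution.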

Additional observations from a re-analysis of the deposited data

How the results depend on the processing

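No paired analysis was possible because each group is 1 library, and for the same reason no replicate could be left out. The share of Rspo2 Hhip cells became 0.273% in untreated skin with at least 2 UMIs of both genes and 0.468% at oxazolone day 16 when Dcc was also required. Over barcodes passing the Ptprc and keratin limits it was 0.826%, 6.90% and 3.15% in the untreated, day 10 and day 16 libraries. At clustering resolution 0.5 the cluster with most of the selected cells held 96.8% of them, and they were 27.9% of its 972 cells. The number of genes called, higher and lower together, was 4006 for selected cells against other fibroblasts, and 2647 with at least 100 UMIs or 2294 at 3-fold. For day 10 against untreated, 1427 became 485 and 522 under the same stricter limits. For day 16 against day 10, 1308 became 461 and 490. For MC903, 1107 became 332 and 425 against untreated, and 1894 became 723 and 742 against day 10. Fewer genes can pass each stricter limit by construction. Requiring 2 UMIs of both genes left 19 MC903 cells, under the minimum of 20, so those comparisons gave no value.

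Of 1016 recomputed ratios of named genes, 996 stayed on their side of the 2-fold limit, 10 lost the call, 9 gained it and 1 reversed. Direction was checked for called genes only. Restricted to the leading cluster, the Dkk2 ratio of day 10 to untreated was 1.27 on the log2 scale. Another 3 gave no value because both sums held 3 UMIs or fewer: Sst at day 10 against untreated without the cell with most of its UMIs, and Ccl11 at day 16 against day 10 without that cell or with doublets removed, so both calls rest on 1 cell. The causes were not tested beyond these settings. The leading cluster and single-cell alternatives were chosen after seeing the data. The leading cluster held 19 untreated and 15 MC903 cells, under the minimum of 20, and its ratios were still computed and counted.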

Other observations

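Most Rspo2 transcripts in these skin libraries came from the selected cells. They held 63.1%, 78.6%, 75.6% and 89.1% of all Rspo2 UMIs of the kept barcodes, in the order untreated, oxazolone day 10, oxazolone day 16 and MC903 day 9, values that the selection itself raises. The measure was also taken for Rspo3 and Rspo4, which the selection did not use. Of Rspo3 UMIs they held 17.6%, 66.0%, 64.3% and 40.4%, and of Rspo4 UMIs 6.02%, 74.6%, 67.7% and 30.1%. The second cluster held 51.9% of the untreated Rspo4 UMIs and 3.97% of those at day 10.

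The 10 highest ratios of selected cells to other fibroblasts at day 10 included Lingo2, Kcnd2 and Pax1. Lingo2, a neuronal membrane protein gene, was at 1250.0, 2164, 1371 and 345 CPM in the selected cells and 2.52, 1.32, 0.417 and 1.07 CPM in the other fibroblasts. Kcnd2, a voltage-gated potassium channel gene, was at 705, 954, 392 and 349.6 CPM against 0.935, 1.24, 0.104 and 0.926 CPM, and the paired box factor gene Pax1 at 54.5, 83.7, 53.4 and 15.5 CPM against 0.122, 0.0778, 0 and 0.178 CPM. In all 4 libraries these 3 genes were higher in the selected cells.

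Interferon-stimulated and MHC class I genes were lower with MC903 than at oxazolone day 10 in 8 of 12 measured and higher in none, where 12.2% of all 9270 measured genes were lower and 8.23% higher. Bst2, which encodes tetherin, was at 35.1 CPM at day 10 and 4.42 CPM with MC903, and the class I heavy chain gene H2-K1 at 400.4 and 79.6 CPM.

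A single day 10 cell held 99.8% of the 167 CPM of the somatostatin gene Sst, which was seen in 2 of the 170 selected cells there.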
